A study of Homo sapiens with 16 samples.

Results

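PC3 cells that had received no toxic siRNA were compared at 48 h and at 24 h after treatment, to describe how the transcriptome of control cells differed between these times. The comparison used the 4 PC3 control libraries of the 16 libraries in the series: mock-treated cells at 24 h, mock-treated cells at 48 h, and cells transfected with siNT1 at 24 h and at 48 h. They were chosen by their labels for line, treatment and time. PC3 is a prostate cancer cell line of wild-type genotype per the labels, siNT1 is a non-targeting siRNA duplex, labelled with a dose of 1 nM (the methods of the study give a higher dose), and the other PC3 libraries came from cells given siGGGGGC or siCAG. The same 8 conditions were sequenced in HeyA8, an ovarian cancer cell line.

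Each condition gave 1 library, so the mock and siNT1 libraries served as the 2 libraries a side, with treatment as the block. The methods of the study describe wells in duplicate, and the sources used here do not say whether wells were pooled into a library. Nothing in the labels says that the libraries came from separate cultures, and the p-values measure the spread between these libraries, which may be technical. The medium of the wells kept to 48 h was changed at 24 h, so time since plating, cell density, time since transfection and the change of medium cannot be told apart. In RNA from a whole well, fewer cells of a kind and less RNA per cell cannot be told apart either. The libraries held 29610199 reads counted on genes (mock, 24 h), 28349471 (siNT1, 24 h), 29971612 (mock, 48 h) and 28216897 (siNT1, 48 h), and values are given below in that order as counts scaled to library size by the TMM method (normalized counts). Normalized counts compare a gene between libraries and not with other genes, whose length differs.

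As adherent cells grow towards confluence, they use up lipid, oxygen and growth factors and touch more neighbours, and several well known programmes read these conditions. The SREBP factors switch on cholesterol synthesis and uptake when sterols run short, HIF-1 switches on glycolysis and mitophagy genes when oxygen falls, and YAP with its TEAD partners is turned down by cell contact. NF-kB drives chemokines and the cIAP proteins in response to cytokine receptors, and SMAD factors drive the ID genes in response to BMP ligands.

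The libraries carried the markers of the labelled line. VIM, a mesenchymal intermediate filament that PC3 cells make, had between 28447 and 31037 normalized counts, and the epithelial keratins KRT18 and KRT8 had between 5420 and 9401. The luminal prostate markers KLK3, which encodes PSA, and KLK2 had 0 reads in all 4 libraries, where a count of 0 allows up to 3 reads. TMPRSS2 and SLC45A3 of the same list were present, with 725 to 1136 and 757 to 1121.5 normalized counts. Of the neuroendocrine markers, CHGB and INSM1 had 0 reads, CHGA at most 0.993 normalized counts, and SYP at most 39.4, while ENO2, a neuronal enolase that other cells also make, had 4118, 2924.5, 4654 and 3942 (log2 fold change 0.30, adjusted p = 0.521). CD3E, HBB, CDH5 and DCN, markers of T cells, red cells, endothelium and fibroblasts, had 0 reads in all 4 libraries, PTPRC, the pan-leukocyte marker, at most 12.3 normalized counts, and PECAM1, an endothelial adhesion molecule that other cells also make, between 86.3 and 153. The mesenchymal receptor PDGFRA had 49.7, 84.2, 91.3 and 116 (log2 fold change 0.66, adjusted p = 0.511), and PDGFRB at most 9.19. None of the markers tested passed the test for time. Summed over the 11 blood, endothelial and fibroblast markers, the level was 214, 194, 262 and 265 normalized counts, and its part in the results below was not tested.

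Of 14598 genes tested, 4 rose and 6 fell between 24 and 48 h at an adjusted p under 0.05 (edgeR's quasi-likelihood test with Benjamini-Hochberg adjustment), which is 0.0274% and 0.0411% of the genes, or 0.0685% in either direction. At an unadjusted p under 0.05 there were 531 higher and 831 lower genes (3.64% and 5.69%, together 9.33%). Both 48 h libraries lay above both 24 h libraries for 15.9% of genes and below them for 15.5%. The fit left 1 residual degree of freedom, and the biological coefficient of variation it estimated was 13.1%. The median log2 fold change of all genes was -0.011.

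The mock and siNT1 pairs moved by different amounts. Among 10418 genes with a mean of at least 200 normalized counts, the SD of the log2 ratio of 48 to 24 h was 0.241 in mock-treated cells and 0.354 after siNT1. More than 2-fold changes were found for 45 of these genes in the mock pair and for 251 in the siNT1 pair, and 12 genes changed more than 2-fold in the same direction in both, 5 up and 7 down. The direction was the same in both pairs for 57.7% of these genes. The siNT1 library of 48 h stood farther from its mock partner (SD of the log2 ratio 0.432) than the siNT1 library of 24 h did (0.297). In the same fit, 253 genes (1.73%) differed between siNT1 and mock, 156 higher (1.07%) and 97 lower (0.664%) after siNT1. Without the treatment block 0 genes passed edgeR's quasi-likelihood test, and 421 had an unadjusted p under 0.05. Leaving out a library left 3, fitted with time as the only term: 0 genes passed without the siNT1 library of 48 h (879 at an unadjusted p under 0.05), without the mock library of 24 h (292) or without the siNT1 library of 24 h (122), and 1 higher and 88 lower genes passed without the mock library of 48 h. All 10 genes that passed with 4 libraries moved in the same direction whichever library was left out, though the size of several changed. With RLE size factors in place of TMM, CXCL8, BIRC3, ID3, LINC00261 and FZD4 still passed and CXCL1, CXCL6, TFF1, RASL11A and INSIG1 did not. Only CXCL8 passed when genes were kept at a mean of at least 50 counts.

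**Figure D1:**
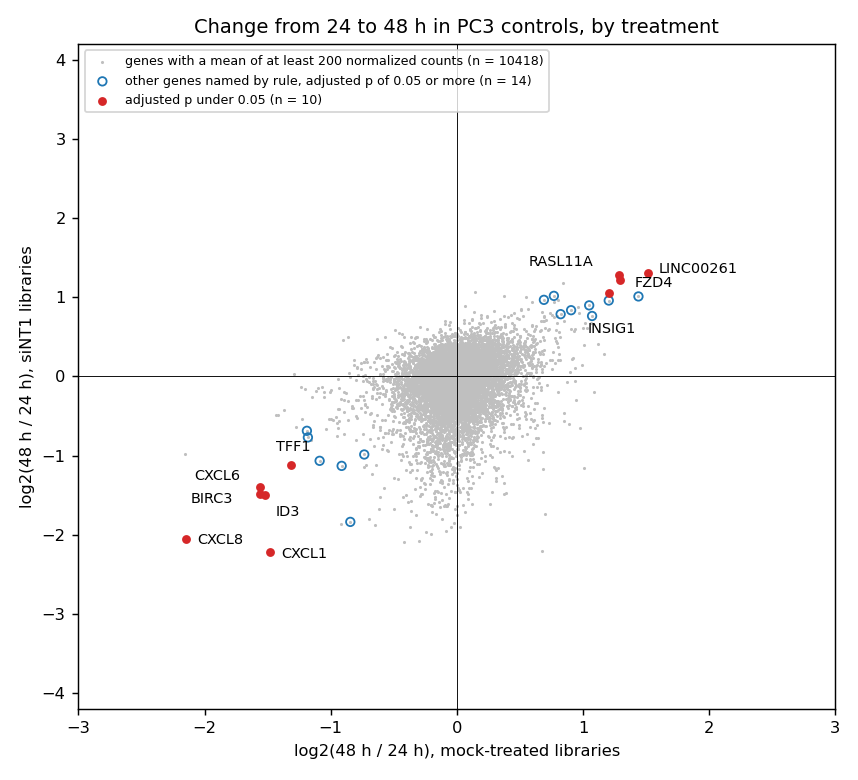
Each point is a gene with a mean of at least 200 normalized counts; the x axis is the log2 ratio of 48 to 24 h in the mock-treated libraries and the y axis the same ratio in the siNT1 libraries. Filled red points are the 10 genes with an adjusted p under 0.05, open blue circles the 14 other genes that fill the 12 named by rule in each direction, and the cloud of grey points reaches farther along the siNT1 axis than along the mock axis.

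The largest decreases among the genes that passed were those of CXCL8 and CXCL1, both chemokine genes. CXCL8, which encodes the neutrophil attractant interleukin-8, had 727, 3903, 163 and 942 normalized counts. It was lower at 48 h within each treatment, but the groups overlapped, because the mock level at 24 h was below the siNT1 level at 48 h. CXCL8 fell 4.28-fold (log2 fold change -2.10, standard error 0.14, adjusted p = 0.0070 in edgeR's quasi-likelihood test), and it was higher after siNT1 than in mock by 2.47 on the log2 scale (adjusted p = 0.00135, same test and fit). Its log2 fold change ranged from -3.82 without the siNT1 library of 48 h to -0.40 without the siNT1 library of 24 h. CXCL1, a related ligand of the receptor CXCR2, had 577, 1570.0, 207 and 335 normalized counts. Both 48 h libraries were below both 24 h libraries, and CXCL1 fell 3.65-fold (log2 fold change -1.87, standard error 0.21, adjusted p = 0.0368), with a range of -2.53 to -1.09 when each library was left out. Like CXCL8, CXCL1 was higher after siNT1 than in mock, by 1.10 on the log2 scale (adjusted p = 0.0460, same test and fit). CXCL6, another neutrophil attractant of the cluster, had 720.2, 987, 243 and 374 normalized counts. The groups did not overlap, and CXCL6 fell 2.79-fold (log2 fold change -1.48, standard error 0.16, adjusted p = 0.0329).

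CXCL3, CXCL2 and CXCL5, further members of this cluster on chromosome 4, were at lower counts and did not pass. CXCL3 had 79.5, 288, 19.2 and 70.5 normalized counts (log2 fold change -2.03, adjusted p = 0.0584), and CXCL2 had 63.6, 275, 16.3 and 77.6 (log2 fold change -1.87, adjusted p = 0.103). CXCL5, named after its values were seen because it lies in the same cluster, had 136, 503, 60.5 and 287 (log2 fold change -0.96, adjusted p = 0.274). All 3 were lower at 48 h within each treatment, and only CXCL3 showed no overlap between 24 and 48 h. CXCL1, CXCL2 and CXCL3 are close copies, and how the counting split reads between them is not known, so their separate values are uncertain.

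In the deposited coordinates (hg38) these genes lie on chromosome 4 in the order CXCL8 (chr4:73740506-73743716), CXCL6 (chr4:73836556-73838760), CXCL1 (chr4:73869392-73871302), CXCL5 (chr4:73995642-73998729), CXCL3 (chr4:74036591-74038773) and CXCL2 (chr4:74097037-74099280), the last 3 on the minus strand. The 9-base NF-kB motif GGAATTTCC was searched on both strands of RefSeq promoter windows (GRCh38.p14, 250 bases before to 50 bases after each start). It was in 162 of 35116 windows (0.461%). All 6 chemokine genes held it, on the strand of the gene and between 77 and 91 bases before the RefSeq start. The bases around it are nearly alike in CXCL6 and CXCL5, and in CXCL1, CXCL3 and CXCL2, so these are not 6 separate matches. The stretches are shown because the 6 genes are neighbours in the cluster that holds 3 of the genes that passed, with the motif in capitals and 10 bases on either side.
CXCL8: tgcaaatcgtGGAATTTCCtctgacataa
CXCL6: ctgagttcagGGAATTTCCccagcatccc
CXCL1: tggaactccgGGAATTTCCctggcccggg
CXCL5: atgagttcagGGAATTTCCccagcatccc
CXCL3: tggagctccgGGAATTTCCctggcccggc
CXCL2: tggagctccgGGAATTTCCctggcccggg
Read 5′ to 3′, they lie at chr4:73740468-73740496 (plus), chr4:73836579-73836607 (plus), chr4:73869305-73869333 (plus), chr4:73998749-73998777 (minus), chr4:74038749-74038777 (minus) and chr4:74099254-74099282 (minus). For CXCL6, CXCL3 and CXCL2 the deposited gene models begin farther upstream than RefSeq's, so that the motif falls within them. Which annotation was counted is not known, since the methods of the study name Ensembl but the gene symbols resemble those of RefSeq. This exact sequence was not found in the windows of BIRC3, BIRC2, ID1, ID3, INSIG1, FZD4, RASL11A and LINC00261. Other forms of the motif were not searched, so these windows may hold NF-kB sites of another sequence. No window of TFF1, which passed as well, was read for the motif. A match describes the sequence and shows no binding.

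BIRC3, which encodes the ubiquitin ligase cIAP2 of the tumour necrosis factor receptor complex, had 1299, 1968, 439 and 705 normalized counts. The groups did not overlap, and BIRC3 (chr11:102317450-102339403) fell 2.87-fold (log2 fold change -1.52, standard error 0.14, adjusted p = 0.0214 in edgeR's test). Its neighbour and paralog BIRC2 (chr11:102347182-102378670), encoding cIAP1, had 4571, 6242, 2428 and 2850.2 normalized counts. Its 48 h libraries were also below both 24 h libraries, with a log2 fold change of -1.02 that did not pass (adjusted p = 0.0584).

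Among 27 tested genes of a list of NF-kB targets, cytokines and chemokines, 4 fell (CXCL8, CXCL1, CXCL6 and BIRC3) and 0 rose. At an unadjusted p under 0.05, 14 were lower (51.9% of the list, against 5.69% of all genes) and 1 was higher, and the median log2 fold change was -0.44. The median was -0.55 in the mock pair and -0.41 in the siNT1 pair. NFKBIA, which encodes the inhibitor IkB-alpha, had 2564, 3671, 1287 and 2531 normalized counts (log2 fold change -0.76, adjusted p = 0.212). LIF, the most abundant member by count, was near level with 3763, 5205, 4231 and 5828 normalized counts. PTX3, a secreted pattern recognition protein, was the only member higher at an unadjusted p under 0.05, with 973, 1383, 1868 and 2098 (log2 fold change 0.77, adjusted p = 0.185). Of the 27 genes, 12 were higher after siNT1 than in mock at an adjusted p under 0.05 in the same fit (44.4%, against 1.07% of all genes), and 0 were lower. Leaving out 1 library moved the median of the list between -1.28 (without the siNT1 library of 48 h) and 0.0092 (without the siNT1 library of 24 h).

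ID3 encodes an inhibitor of basic helix-loop-helix factors and is a classic BMP target. It had 1128, 1526, 393 and 541 normalized counts, without overlap between 24 and 48 h, and fell 2.84-fold (log2 fold change -1.51, standard error 0.14, adjusted p = 0.0214). ID1, its relative, had 3631, 5958, 2022 and 1665 normalized counts. The groups did not overlap, but the difference was wider in the siNT1 pair than in the mock pair, and the log2 fold change of -1.34 (standard error 0.22) had an adjusted p of 0.159. In the list of TGF-beta, activin and BMP genes, 1 of 24 fell. At an unadjusted p under 0.05, 10 were lower and 0 higher (41.7% lower, against 5.69%), and the median log2 fold change was -0.26. The median ranged from -0.58 without the siNT1 library of 48 h to -0.030 without the siNT1 library of 24 h. After siNT1, 4 of the 24 genes were higher than in mock at an adjusted p under 0.05 in the same fit (16.7%, against 1.07% of all genes), and 0 were lower. INHBA, the activin A subunit, had 1349, 2647, 836 and 1535 normalized counts (log2 fold change -0.74, adjusted p = 0.180), and its groups overlapped. INHBB, the activin B subunit and the most abundant member by count, had 14728, 12675, 15991 and 17834 (log2 fold change 0.31, adjusted p = 0.548).

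TFF1, which encodes a small secreted trefoil peptide of mucosal epithelia, had 3449, 2679, 1385 and 1231 normalized counts. Both 48 h libraries were below both 24 h libraries, and TFF1 fell 2.33-fold (log2 fold change -1.22, standard error 0.13, adjusted p = 0.0329 in edgeR's test). KRT7, a simple-epithelial keratin, had 12584, 20356, 5521 and 12638 normalized counts, was lower at 48 h within each treatment, overlapped between the groups, and did not pass (log2 fold change -0.94, adjusted p = 0.147). HMOX1, the haem-degrading oxygenase of the oxidative stress response, had 498, 2370.0, 299 and 1195 (log2 fold change -0.87, adjusted p = 0.160). AMIGO2, a cell adhesion protein, and PROSER2 completed the lower genes chosen by p-value, with log2 fold changes of -1.08 (adjusted p = 0.0584) and -0.97 (adjusted p = 0.172).

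The increases were led by LINC00261, a long non-coding RNA gene on chromosome 20, with 2999.9, 1903, 8588 and 4698 normalized counts. The groups did not overlap, and LINC00261 (chr20:22560554-22578642) rose 2.66-fold (log2 fold change 1.41, standard error 0.13, adjusted p = 0.0214). It was lower after siNT1 than in mock by 0.76 on the log2 scale (difference -0.76, adjusted p = 0.0316 in the same fit). FZD4, a receptor for Wnt ligands and norrin, had 2954, 2682, 7246 and 6263 normalized counts. The mock and siNT1 values were close at each time, and FZD4 (chr11:86945675-86955398) rose 2.39-fold (log2 fold change 1.26, standard error 0.12, adjusted p = 0.0214). RASL11A, a small Ras-like GTPase, had 441, 392, 1074 and 956 normalized counts. It rose 2.44-fold without overlap (log2 fold change 1.28, standard error 0.15, adjusted p = 0.0388).

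**Figure D2:**
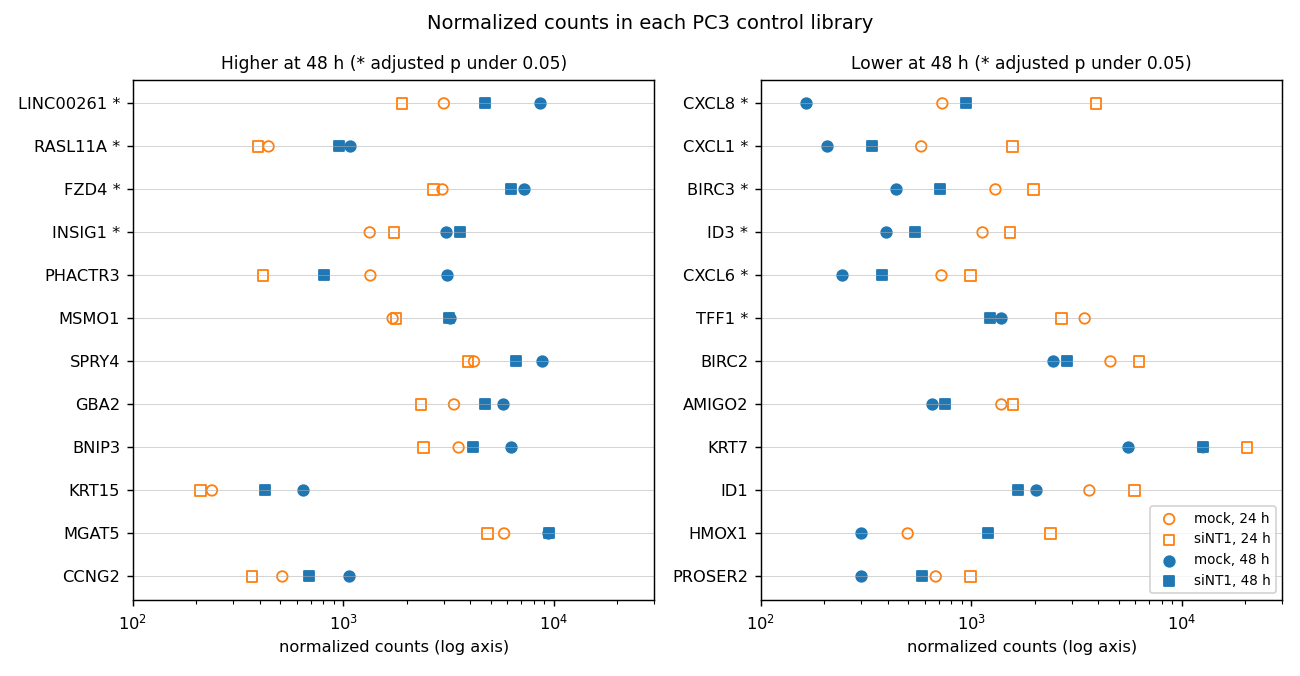
Normalized counts on a log axis in each of the 4 PC3 control libraries for the 12 higher and 12 lower genes named by rule; orange open symbols are 24 h, blue filled symbols 48 h, circles mock and squares siNT1, and an asterisk marks an adjusted p under 0.05. In 20 of the 24 genes both 48 h symbols lie on the same side of both 24 h symbols; in the other 4 (CXCL8, PHACTR3, KRT7 and HMOX1) they overlap.

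INSIG1 encodes the endoplasmic reticulum protein that holds back SREBP when sterols are plentiful, and is itself an SREBP target. It had 1333, 1735, 3085 and 3598 normalized counts, without overlap, and rose 2.19-fold (log2 fold change 1.13, standard error 0.13, adjusted p = 0.0368). It was the only member of either sterol list that passed. Among 20 genes of sterol synthesis, 0 passed in either direction, but 15 were higher and 0 lower at an unadjusted p under 0.05 (75% of the list, against 3.64% of all genes), and the median log2 fold change was 0.41. Normalized counts summed over the list were 73034, 61428, 91651 and 84794. MSMO1, a C-4 sterol methyl oxidase, had 1713, 1773, 3210 and 3167 (log2 fold change 0.87, adjusted p = 0.103). SQLE, which makes squalene epoxide, had 4754, 4553, 7661 and 7412 (log2 fold change 0.70, adjusted p = 0.166). FDFT1, squalene synthase, had 1610.2, 1143, 2599 and 1936 (log2 fold change 0.73, adjusted p = 0.180). In these 3 genes the groups did not overlap, and in MSMO1 and SQLE the mock and siNT1 values nearly coincided at each time.

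Among 10 genes of sterol uptake and feedback, 1 rose (INSIG1), 5 were higher and 0 lower at an unadjusted p under 0.05 (50% higher, against 3.64%), and the median log2 fold change was 0.43. SREBF2, which encodes the factor SREBP-2 itself, had 3567, 3277, 4199.6 and 4804.5 normalized counts (log2 fold change 0.39, adjusted p = 0.455), and both 48 h libraries were above both 24 h libraries. Of 13 fatty acid synthesis genes, 3 were higher and 0 lower at an unadjusted p under 0.05 (23.1% higher, against 3.64%), with a median log2 fold change of 0.16. SCD, the stearoyl-CoA desaturase, had 16400, 11149, 22767 and 14859 (log2 fold change 0.44, adjusted p = 0.360), so that its groups overlapped, and FASN had a log2 fold change of 0.19 (adjusted p = 0.701).

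Hypoxia targets were higher on balance, without a member that passed. Of 26 tested, 14 were higher and 0 lower at an unadjusted p under 0.05 (53.8%, against 3.64%), the median log2 fold change was 0.32, and it was 0.39 in the mock pair and 0.24 in the siNT1 pair. The filter on low counts let in 2 of the 14 higher genes through the 48 h libraries only, and of the 23 with a mean of at least 50 normalized counts 12 were higher and 0 lower. BNIP3, a mitophagy receptor, had 3524, 2399, 6236 and 4137 normalized counts (log2 fold change 0.80, adjusted p = 0.125). PFKFB4, which makes the glycolytic activator fructose 2,6-bisphosphate, had 1798, 1169.6, 3009 and 2047 (log2 fold change 0.77, adjusted p = 0.152), and NDRG1 had 7849, 5176, 11506 and 10364 (log2 fold change 0.78, adjusted p = 0.185). In each, both 48 h libraries were above both 24 h libraries, and the siNT1 library was below the mock library at each time. ERO1A, an oxidase of the endoplasmic reticulum and the most abundant member by count, was near level (log2 fold change 0.03, adjusted p = 0.970). Of 17 glycolysis genes, 7 were higher and 0 lower at an unadjusted p under 0.05 (41.2%, against 3.64%), with a median of 0.21. LDHA, lactate dehydrogenase, had 73021, 49345, 92998 and 70559 normalized counts (log2 fold change 0.43, adjusted p = 0.423), and its groups overlapped.

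**Figure D3:**
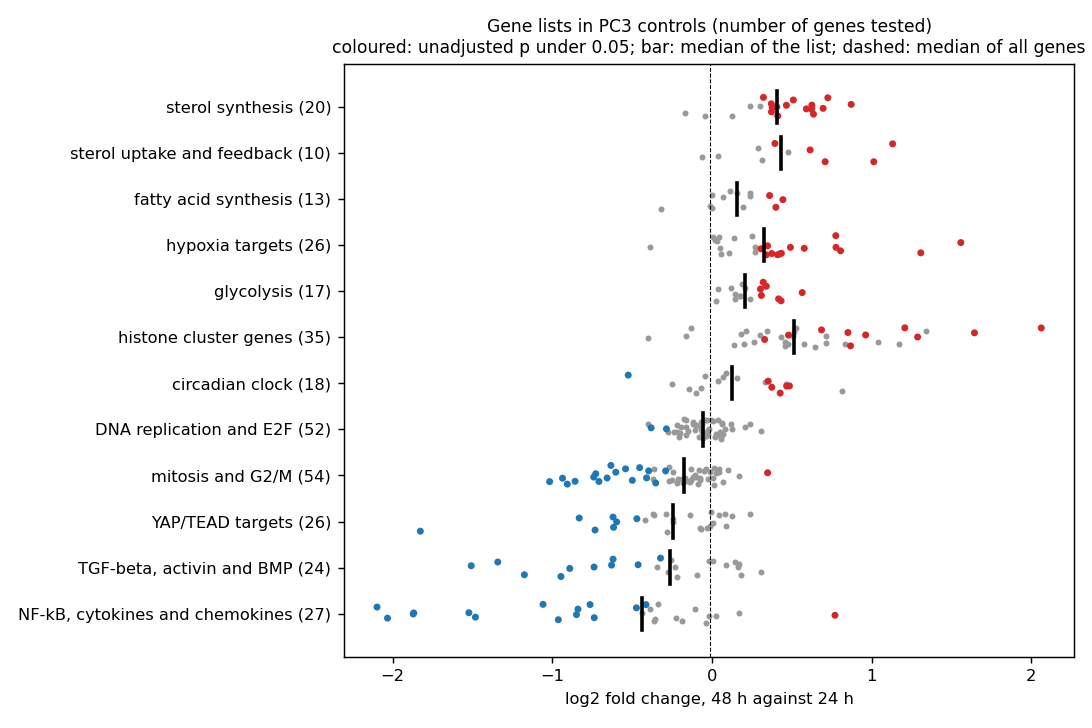
Log2 fold change from 24 to 48 h (x axis) of every tested gene in 12 gene lists, with the number of genes tested after each name; coloured points have an unadjusted p under 0.05 (red higher, blue lower), black bars are list medians and the dashed line is the median of all genes. The sterol, fatty acid, hypoxia, glycolysis and histone lists have red points and no blue ones, with medians between 0.16 and 0.51, and the NF-kB list has the lowest median of the 12, at -0.44.

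Replication-dependent histone genes, whose mRNAs mostly lack poly(A) tails, were also higher on balance. Of 35 tested (of 73 in the table), 0 passed, 10 were higher and 0 lower at an unadjusted p under 0.05 (28.6%, against 3.64%), and the median log2 fold change was 0.51. The filter on low counts can favour genes higher at 48 h. Of the 35, 11 met it in both 48 h libraries but not in both 24 h libraries, 3 of the 10 higher ones among them. Of the 12 with a mean of at least 50 normalized counts, 6 were higher and 0 lower, with a median of 0.47. Most were at low counts, and histone genes are near-identical copies among which reads may be split, so their separate values are uncertain. HIST1H2BK, the most abundant, had 1932, 2549.7, 2419 and 3216 normalized counts (log2 fold change 0.33, adjusted p = 0.477), and HIST2H2BE had 369, 425, 584 and 694 (log2 fold change 0.69, adjusted p = 0.293). HIST2H2BE did not overlap between the times, and HIST1H2BK did. Both of these genes are known to yield polyadenylated transcripts as well. HIST1H4C, a histone H4 gene, was too low to be tested, with 2.98, 9.24, 8.65 and 19.4 normalized counts. The 52 genes of DNA replication, which histone synthesis normally accompanies, had 0 higher and 2 lower at an unadjusted p under 0.05 (3.85% lower, against 5.69%) and a median of -0.056, which ranged from -0.10 to 0.017 when each library was left out. In 14 of the 52 (26.9%, against 15.5% of all genes) both 48 h libraries lay below both 24 h libraries, and in 2 (3.85%, against 15.9%) above them.

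Genes of mitosis and the G2/M phase were lower on balance. Of 54 tested, 0 passed, 17 were lower and 1 higher at an unadjusted p under 0.05 (31.5% lower, against 5.69%), and the median log2 fold change was -0.18, at -0.22 in the mock pair and -0.11 in the siNT1 pair. Both 48 h libraries lay below both 24 h libraries in 8 of the 54 genes, a share near that of all genes (14.8%, against 15.5%), and above them in 0. CDK1, the mitotic kinase, had 15165, 10846, 11342 and 6287 normalized counts (log2 fold change -0.60, adjusted p = 0.288). TTK, the spindle checkpoint kinase, had 2517, 1960.2, 1934 and 925 (log2 fold change -0.73, adjusted p = 0.360). KIF18A, a mitotic kinesin, had 1087, 690.0, 808 and 343 (log2 fold change -0.71, adjusted p = 0.360). The siNT1 library of 48 h was the lowest of the 4 in all 3 genes, and in CDK1 and KIF18A the groups overlapped. MKI67, the proliferation marker and the most abundant member by count, had 18268, 11469.9, 14457 and 10014 (log2 fold change -0.27, adjusted p = 0.550), and TOP2A had 17684, 11587, 15040.0 and 6424 (log2 fold change -0.54, adjusted p = 0.423). Of the 54 genes, 4 were lower after siNT1 than in mock at an adjusted p under 0.05 (7.41%, against 0.664% of all genes). With each library left out, the median of the list ranged from -0.37 (without the siNT1 library of 24 h) to 0.019 (without the mock library of 24 h). The log2 fold changes then ranged from -1.05 to -0.20 for CDK1, from -1.28 to -0.21 for TTK and from -1.37 to -0.14 for KIF18A.

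Targets of YAP and TEAD were lower in part. Of 26 tested, 0 passed, 7 were lower and 0 higher at an unadjusted p under 0.05 (26.9% lower, against 5.69%), and the median log2 fold change of -0.25 came from the mock pair (-0.47) more than from the siNT1 pair (-0.042). It ranged from -0.41 to 0.078 when each library was left out, the latter without the mock library of 48 h. Both 48 h libraries lay below both 24 h libraries in 5 of the 26 genes (19.2%, against 15.5% of all genes). After siNT1, 3 of the 26 genes were higher than in mock at an adjusted p under 0.05 in the same fit (11.5%, against 1.07% of all genes), and 0 were lower. ANKRD1, a cardiac and stress-responsive ankyrin protein, had 172, 202, 24.0 and 96.0 normalized counts (log2 fold change -1.83, adjusted p = 0.276), without overlap. THBS1, thrombospondin-1, had 3754, 11989, 1929 and 8426 (log2 fold change -0.73, adjusted p = 0.219), and siNT1 libraries were above mock libraries at both times. MYOF and AXL, the most abundant members by count, had log2 fold changes of 0.13 (adjusted p = 0.807) and -0.075 (adjusted p = 0.947).

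Feedback inhibitors of the MAPK pathway and immediate early genes went in both directions. Of 34 tested, 7 were higher and 4 lower at an unadjusted p under 0.05 (20.6% and 11.8%, against 3.64% and 5.69% of all genes), with a median log2 fold change of -0.098. SPRY4, a Sprouty inhibitor of receptor tyrosine kinase signalling, had 4171, 3904, 8772 and 6627 normalized counts (log2 fold change 0.92, adjusted p = 0.103), without overlap. ETV4, a transcription factor induced by the same signalling, had 3178, 3002.5, 4500.4 and 4267 (log2 fold change 0.50, adjusted p = 0.314). Of 18 circadian clock genes, 5 were higher and 1 lower at an unadjusted p under 0.05 (27.8% and 5.56%, against the same shares), with a median of 0.12. NPAS2 had 4398, 3955, 6118 and 5137 normalized counts (log2 fold change 0.43, adjusted p = 0.405), and CLOCK, its paralog, had 6821, 4471, 5872 and 2503 (log2 fold change -0.52, adjusted p = 0.443).

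The remaining higher genes named by p-value had log2 fold changes between 0.83 and 1.23 and did not pass. Their adjusted p-values were 0.0627 for PHACTR3, 0.103 for GBA2, the non-lysosomal glucosylceramidase, 0.129 for the keratin KRT15, and 0.135 for both MGAT5, an N-glycan branching enzyme, and CCNG2, the cyclin G2 gene that FOXO factors induce. PHACTR3 had 1343, 415, 3096 and 807 normalized counts, so that its mock library of 24 h lay above its siNT1 library of 48 h. In KRT15 the values were 237, 209, 646 and 423, without overlap.

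The counts of the remaining lists at an unadjusted p under 0.05 are given here beside 3.64% higher and 5.69% lower among all genes. The interferon response had 3 higher and 4 lower of 39 tested (7.69% and 10.3%), p53 targets 1 and 2 of 24 (4.17% and 8.33%), and amino acid and integrated stress response genes 2 and 2 of 37 (5.41% each way). Cytosolic ribosomal proteins had 1 and 0 of 82, with a median log2 fold change of 0.084. In 44 of these 82 genes (53.7%, against 15.9% of all genes) both 48 h libraries lay above both 24 h libraries. Ribosome biogenesis had 0 higher and 4 lower of 40 (10% lower), with a median of -0.11, and in 20 of the 40 (50%, against 15.5%) both 48 h libraries lay below both 24 h libraries. The unfolded protein response had 0 higher and 3 lower of 20 (15% lower), with a median of -0.17. That median ranged from -0.43 without the mock library of 24 h to 0.041 without the siNT1 library of 24 h. In the heat shock list 5 were higher and 2 lower of 17 (29.4% and 11.8%), and in the extracellular matrix list 5 and 4 of 28 (17.9% and 14.3%). Matrix proteases and inhibitors had 0 higher and 5 lower of 13 (38.5% lower), mesenchymal markers 0 and 4 of 15 (26.7% lower), and genes of FOXO and growth factor signalling 4 and 3 of 25 (16% and 12%). Of 6 luminal prostate genes tested, 2 were higher (33.3%), 0 were lower and 0 passed. TMPRSS2 had 725, 762, 974 and 1136 normalized counts (log2 fold change 0.50, adjusted p = 0.408). SLC45A3, the transporter prostein, had a log2 fold change of 0.42 (adjusted p = 0.456). G1 cyclins and CDK inhibitors had 1 higher and 3 lower of 15 (6.67% and 20%), glucose sensing 1 and 2 of 6 (16.7% and 33.3%), oxidative stress 1 and 2 of 21 (4.76% and 9.52%), and Notch and Wnt targets 1 and 2 of 18 (5.56% and 11.1%). Contact and junction genes had 2 higher and 0 lower of 26 (7.69% higher), the MYC network 1 and 0 of 10 (10%), and lysosome and autophagy 1 and 1 of 28 (3.57% each way). MHC class I and antigen presentation had 0 higher and 1 lower of 15 (6.67% lower), snoRNA host genes 0 and 1 of 14 (7.14%), metallothioneins 0 and 1 of 5 (20%), and epithelial and PC3 identity markers 0 and 2 of 9 (22.2%). The few tested markers of other cell types had 1 higher and 0 lower of 3 (neuroendocrine), 0 and 0 of 4 (ovarian and Muellerian) and 1 and 1 of 3 (blood, endothelial and fibroblast). The lower gene of the last list, PTPRC, met the filter on low counts through the 24 h libraries only.

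HeyA8 controls of the same design were used to read the same genes in another line. There, 3181 of 13298 genes had an unadjusted p under 0.05 (23.9%), with a coefficient of variation of 6.91% against 13.1% in PC3 cells, so counts of calls in the lines cannot be set against each other. A fit of the 8 control libraries with a line by time term gave 0 of 15301 genes at an adjusted p under 0.05 (edgeR's quasi-likelihood test), and 1371 had an unadjusted p under 0.05 (8.96%), while RLE size factors gave 14 calls and the likelihood ratio test 163. Sterol synthesis genes had a median log2 fold change of 0.67 in HeyA8 and 0.41 in PC3 cells. In HeyA8 cells 18 of 20 were higher at an unadjusted p under 0.05, and INSIG1 had 1.45 in HeyA8 against 1.13 in PC3 cells. ID3 fell in both, with a log2 fold change in HeyA8 of -1.14 (adjusted p = 1.96e-20 in edgeR's test). ID1, which did not pass in PC3 cells, fell in HeyA8 cells (log2 fold change -1.44, adjusted p = 8.34e-51). The HeyA8 fit also had 2 libraries a side and 1 residual degree of freedom, so its small p-values rest on a spread borrowed across genes. For ID1 the difference between the lines was 0.084 (standard error 0.27, adjusted p = 0.991 in edgeR's quasi-likelihood test of the interaction). ID2 passed in neither, with -0.28 in PC3 (adjusted p = 0.612) and -1.06 in HeyA8 cells (adjusted p = 0.0688).

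For the NF-kB list the difference between the lines was not tested. In PC3 cells its median log2 fold change was -0.44, or 0.0092 without the siNT1 library of 24 h. Its median log2 fold change was 0.14 over the 23 members tested in HeyA8 cells. There 8 were higher and 5 lower at an unadjusted p under 0.05, beside 23.9% of all genes in either direction. Of these 23 members, 13 had an unadjusted interaction p under 0.05, against 9.58% of the 12653 genes tested in both lines. In HeyA8 cells CXCL8 fell with a log2 fold change of -0.41 (adjusted p = 0.00373 in edgeR's test), and that of BIRC3 was 0.18 (adjusted p = 0.418). Their differences between the lines were -1.70 (standard error 0.17) and -1.72 (standard error 0.19), both with an adjusted p of 0.0504. FZD4 had -0.058 in HeyA8 cells, a difference of 1.30 (standard error 0.16) with the same adjusted p. The other genes of smallest interaction p were FMN2, an actin nucleator, LINC01547 and COL6A3, a collagen VI chain, with log2 fold changes of -0.36, 0.71 and 0.18 in PC3 and of -2.84, -1.30 and -2.48 in HeyA8 (adjusted p = 0.0504 for each). The mitosis list had a median of 0.052 in HeyA8 against -0.18 in PC3 cells, with 17 of 54 interaction p-values under 0.05 unadjusted. Hypoxia targets had a median of 0.036 against 0.32, with 5 of the 24 tested in both lines. LINC00261, CXCL6 and PHACTR3 had 0 reads in all 4 HeyA8 controls and TFF1 at most 1.08 normalized counts, so these genes allow no comparison of the lines.

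**Figure D4:**
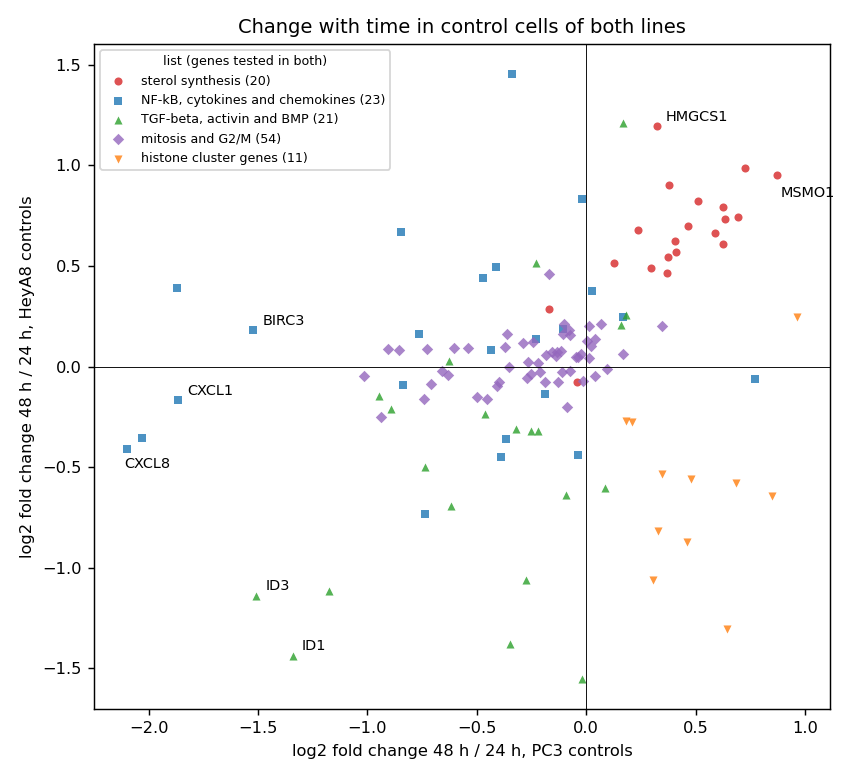
Log2 fold change from 24 to 48 h of single genes in PC3 controls (x axis) and HeyA8 controls (y axis) for 5 lists, with the number of genes tested in both lines. Sterol synthesis genes (red circles) lie mostly in the upper right, ID1 and ID3 (green triangles) in the lower left, and CXCL8, CXCL1 and BIRC3 (blue squares) far to the left, between -0.41 and 0.18 on the HeyA8 axis.

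In PC3 cells given the other siRNAs, the change from 24 to 48 h rests on 1 library per time. No gene differed from the controls in its change with time at an adjusted p under 0.05 among 15136 tested by edgeR's quasi-likelihood test, and 2603 (17.2%) did for siGGGGGC and 950 (6.28%) for siCAG at an unadjusted p under 0.05. The log2 ratio of 48 to 24 h for CXCL8 was -1.59 after siGGGGGC and -2.33 after siCAG, and for CXCL1 -2.79 and -1.78, beside -2.10 and -1.87 in the controls. BIRC3 had 0.78 after siGGGGGC and -1.68 after siCAG, beside -1.52 in the controls. FZD4 had -0.16 and 0.70, INSIG1 0.79 and 0.39, and LINC00261 0.25 and 0.83, beside 1.26, 1.13 and 1.41 in the controls. ID3 had -0.29 and -0.56, and TFF1 -1.04 and -0.20, beside -1.51 and -1.22. The interactions share the control libraries, and none of these differences passed the test.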

How the data were processed

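Reads were sequenced from total RNA after ribosomal RNA removal, with a paired-end kit. The authors used Trimmomatic for trimming, an alignment to hg38 and a count of reads per gene. The submitters' processing notes name STAR and HTSeq. The deposited values are whole-number counts without normalization for 26485 genes named by symbol, 0 columns belonged to no sample, and mitochondrially encoded genes are not among the rows. Reads per library are given with the results, and their number sets the counting precision.

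Genes were kept by filterByExpr, scaled by TMM and tested with edgeR 4.0.16 in R 4.3.3 (glmQLFit and glmQLFTest, treatment and time as terms, 4 libraries), with Benjamini-Hochberg adjustment over all 14598 genes and a threshold of 0.05. Interactions used 8 libraries. Standard errors were derived from the test statistic. Promoter windows and starts came from RefSeq (GRCh38.p14). The fit was tested on simulated data, where more of the calls were false than the threshold implies and most of the smallest changes were missed.

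The members and the 40 gene lists (39 with a tested gene) were chosen with earlier results of these data known, so list counts are descriptions. Named genes were the 12 of largest change in each direction among genes passing the test with a mean of at least 200 normalized counts, filled up by smallest p, with small RNA, histone and ribosomal copies and unnamed loci replaced by the next gene, then in 12 lists the 2 most abundant and 3 of smallest p (some given by their list only), identity markers, and the 6 of smallest interaction p. Some genes that this rule names are not reported here and stay in the counts and medians. Alternatives were RLE size factors, DESeq2 1.42.0, the likelihood ratio test, other filters, no block, 8 control libraries, a 2-fold threshold and each library left out. Whether the mock and siNT1 libraries of a time were handled side by side is not given in the sources used here.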

Additional observations from a re-analysis of the deposited data

Results flagged for a closer look

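The median change of histone cluster genes lay on opposite sides of 0 in the control cells of the lines. Their median log2 fold change in PC3 controls was 0.5133 over 35 genes, 11 of which met the filter on low counts through the 48 h libraries only, and 0.47 over the 12 with a mean of at least 50 normalized counts. Over the 11 genes tested in both lines, the median log2 ratio of 48 to 24 h (1 added to each normalized count) was 0.63 in the mock pair and 0.58 in the siNT1 pair of PC3 cells, and -0.60 and -0.63 in the pairs of HeyA8 cells. The difference between the medians was not tested. Of these 11 genes, 8 had an unadjusted interaction p under 0.05, against 9.58% of all genes tested in both lines, and none passed after adjustment in edgeR's quasi-likelihood test. HIST1H2BK, the most abundant, had a log2 fold change of 0.33 in PC3 and -0.82 in HeyA8 controls (difference 1.14, unadjusted p = 2.74e-05).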

How the results depend on the processing

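The number of genes passing depended strongly on the method, and the direction of the 10 did not. Higher and lower genes numbered 4 and 6 in the quasi-likelihood test, 2 and 3 with RLE size factors, 26 and 33 with DESeq2 (567 adjusted p-values were NA), 59 and 96 with the likelihood ratio test, 28 and 38 without a filter, 0 and 1 at a mean of at least 50 counts, 0 and 0 without the treatment block, and 21 and 23 in a fit of the 8 control libraries of both lines. Leaving out each library gave between 0 and 1 higher genes and between 0 and 88 lower genes (88 without the mock library of 48 h, 0 without each of the other 3), from 3 libraries with time as the only term, where a lone library is assumed to vary like the others. With RLE size factors CXCL1, CXCL6, TFF1, RASL11A and INSIG1 lost the call, at a mean of at least 50 counts all but CXCL8 did, and without the mock library of 48 h only FZD4 passed again. All 10 passed again with DESeq2, the likelihood ratio test, no filter and the 8 libraries, and all 10 kept their direction in every alternative run. With each library left out, their log2 fold changes ranged from -3.82 to -0.40 for CXCL8, -2.53 to -1.09 for CXCL1, -1.89 to -1.18 for BIRC3, -1.75 to -1.27 for ID3, -1.81 to -1.19 for CXCL6, -1.40 to -1.03 for TFF1, 0.94 to 1.81 for LINC00261, 1.15 to 1.36 for FZD4, 1.20 to 1.38 for RASL11A and 0.95 to 1.33 for INSIG1. Genes differing between the lines numbered 0, then 14 with RLE size factors, 163 with the likelihood ratio test and 47 without a filter. Times were compared within mock and within siNT1 by the treatment block. No paired analysis was possible because, beyond that block, every condition has replicate number 1 only.

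Without the treatment block AXL turned to 0.025. With each library left out in turn, log2 fold changes of some named genes that did not pass changed sign: they ranged from -0.64 to 0.48 for AXL, -1.17 to 0.058 for CLOCK, -0.0060 to 0.43 for ENO1, -0.14 to 0.20 for ERO1A, -0.12 to 0.48 for FASN, -0.41 to 0.28 for FSTL1, -2.26 to 0.59 for HMOX1, -0.082 to 0.42 for LIF, -0.58 to 0.099 for MKI67, -0.0073 to 0.27 for MYOF, -0.054 to 0.56 for P4HA1, -0.12 to 2.24 for PHACTR3, -0.092 to 0.084 for PHLDA1, -0.15 to 1.27 for SPRY1, -2.03 to 0.46 for THBS1 and -1.19 to 0.040 for TOP2A. Other named genes that did not pass kept their sign but moved by over 1.5 times: they ranged from -2.95 to -0.96 for ANKRD1, 0.48 to 1.12 for BNIP3, 0.64 to 1.27 for CCNG2, -1.05 to -0.20 for CDK1, 0.0045 to 0.34 for COL6A3, -0.55 to -0.18 for FMN2, 0.11 to 0.54 for HIST1H2BK, -1.25 to -0.19 for INHBA, 0.20 to 0.42 for INHBB, -1.37 to -0.14 for KIF18A, -1.58 to -0.38 for KRT7, 0.16 to 0.74 for LDHA, 0.48 to 1.08 for NDRG1, -1.28 to -0.30 for NFKBIA, 0.46 to 1.12 for PFKFB4, -1.48 to -0.52 for PROSER2, 0.11 to 0.76 for SCD and -1.28 to -0.21 for TTK. Among 39 list medians, between 23 and 25 moved by more than the SD between the mock and siNT1 medians when 1 library was left out, and 23 changed sign at least once. Those of sterol synthesis (0.29 to 0.58), sterol uptake (0.42 to 0.64), fatty acid synthesis (0.068 to 0.24), the circadian clock (0.11 to 0.29), ribosome biogenesis (-0.15 to -0.072), hypoxia targets (0.24 to 0.50), glycolysis (0.053 to 0.43), histone genes (0.31 to 0.97) and the TGF-beta list (-0.58 to -0.030) kept their sign. Those of the NF-kB, mitosis, DNA replication, YAP and TEAD, MAPK and unfolded protein response lists did not. Without the treatment block, or at a mean of at least 50 counts, 3 of 39 moved. These fits with a library left out mix the difference between siNT1 and mock into that of time. With 1 library per condition, a change present in a single treatment has no replicate.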

Other observations

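MALAT1 and NEAT1, nuclear long non-coding RNAs that no list held and that were named after their values were seen, were lower at 48 h in both treatments. MALAT1 had 17984, 14920.0, 9902 and 10218 normalized counts in the order mock 24 h, siNT1 24 h, mock 48 h and siNT1 48 h (log2 fold change -0.70, adjusted p = 0.185 in edgeR's test). NEAT1, the scaffold of paraspeckles, had 7696, 8987, 4873 and 6079 (log2 fold change -0.61, adjusted p = 0.212). In both genes the 48 h libraries were below both 24 h libraries.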
